A study of Homo sapiens with 6 samples.

Results

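The genes of G2 and mitosis were followed in K562 cells, a BCR::ABL1-positive human myeloid leukaemia line with erythroid features, after overexpression of MXD3 or of the leukaemic fusion STIM1::MXD3. The 45 genes were chosen by symbol for their roles between late S phase and the end of cell division, and all 45 were found among the 25702 Gene IDs of the count files. The 3 groups compared held 2 libraries each, namely K562 cells nucleofected with the empty pCMV-HA plasmid (EV), with the plasmid expressing full-length MXD3, and with the plasmid expressing STIM1::MXD3, in which the start of MXD3 gives way to the signal peptide of STIM1. The libraries of a group came from independent transient transfections of the one cell line, and the RNA was that of the whole culture, a mixture of all cell cycle stages. No sorting of transfected cells is described for it. A change in the share of cells in mitosis and a change in RNA per cell therefore cannot be told apart.

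MXD3 is a basic helix-loop-helix partner of MAX that binds E-boxes and opposes MYC, and the fusion keeps its DNA-binding domain but loses the amino-terminal repression domain. The genes studied here rise together as cells approach mitosis: cyclin B with CDK1 starts mitotic entry, Polo and Aurora kinases build the spindle, the checkpoint proteins hold anaphase until chromosomes are attached, and the anaphase-promoting complex with CDC20 then releases separase and ends cyclin B. Their promoters are known for the cell cycle genes homology region (CHR), bound by the MuvB core that joins the DREAM repressor complex in quiescent cells and B-MYB and FOXM1 in cycling cells, and for CCAAT boxes bound by NF-Y.

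The promoters of 5 genes on which the later comparisons turn are printed to show these elements, as the 200 bases before the RefSeq start site in GRCh38.p14, all on the plus strand. Capitals mark every match to 4 short motifs on either strand. The CHR was searched as TTTGAA, which reads as its complement in reverse where the match lies on the other strand, and in the rarer form TTCGAA, which reads alike on both strands. The NF-Y box was searched as CCAAT, whose other strand reads ATTGG. The E-box was searched as CACGTG, the site of MYC, MAX and MXD proteins. No marked motif overlaps another in the printed stretches.
CDC20, chr1:43358781-43358980, activator of the anaphase-promoting complex, with CHR letters first on the other strand and then between a pair of CCAAT boxes:
CDC20: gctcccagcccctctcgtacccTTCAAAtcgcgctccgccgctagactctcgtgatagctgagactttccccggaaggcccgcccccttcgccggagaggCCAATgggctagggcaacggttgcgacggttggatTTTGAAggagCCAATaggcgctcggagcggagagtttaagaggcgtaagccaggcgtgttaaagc
PLK1, chr16:23678689-23678888, the Polo kinase, with an E-box, a CCAAT box and CHR letters in that order:
PLK1: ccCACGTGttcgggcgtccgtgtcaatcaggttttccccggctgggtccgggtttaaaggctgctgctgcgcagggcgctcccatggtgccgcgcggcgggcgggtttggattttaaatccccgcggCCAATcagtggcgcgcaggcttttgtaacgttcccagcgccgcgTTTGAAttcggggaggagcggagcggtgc
CDK1, chr10:60778278-60778477, the mitotic cyclin-dependent kinase (the downstream one of 2 listed start sites):
CDK1: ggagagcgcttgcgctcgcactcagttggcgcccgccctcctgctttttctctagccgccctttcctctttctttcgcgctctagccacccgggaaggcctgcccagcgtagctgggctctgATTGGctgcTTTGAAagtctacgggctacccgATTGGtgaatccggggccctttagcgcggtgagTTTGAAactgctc
CCNB1, chr5:69166950-69167149, cyclin B1, with an E-box and a pair of CCAAT boxes:
CCNB1: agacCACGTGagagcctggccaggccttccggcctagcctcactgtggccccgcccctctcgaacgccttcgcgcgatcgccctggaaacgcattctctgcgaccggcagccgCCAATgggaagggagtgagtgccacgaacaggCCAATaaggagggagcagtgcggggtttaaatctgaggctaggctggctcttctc
ESPL1, chr12:53268099-53268298, separase, with a CCAAT box on the other strand and CHR letters close to the start site:
ESPL1: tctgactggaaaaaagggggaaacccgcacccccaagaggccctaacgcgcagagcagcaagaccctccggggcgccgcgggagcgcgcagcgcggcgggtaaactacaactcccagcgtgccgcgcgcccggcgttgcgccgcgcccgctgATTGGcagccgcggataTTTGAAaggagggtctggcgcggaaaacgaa

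Promoter windows from 250 bases before to 50 bases after the start were listed for 38 of the 45 genes, 48 windows in all, and 35116 windows were listed over the whole table. TTTGAA stood in 58.3% of the member windows and in 15.2% of all windows. TTCGAA was in 6.25% and 1.45%, CCAAT in 70.8% and 34.6%, and either form of the CHR letters together with CCAAT in 52.1% and 6.38%. Between 40 bases before the start and the end of the window, CHR letters were found in 52.1% of member windows and 4.53% of all windows. The E-box CACGTG was in 12.5% of member windows, those of ANLN, CCNB1, CENPE, CENPF, MYBL2 and PLK1. It was in 7.26% of all windows and in 9.19% of the windows of genes that passed the filter on low counts. A match is a run of letters and was not tested as a binding site. In the annotation of the files' build, GRCh37, the 5 genes printed above span chr1:43824652-43828874 (CDC20), chr16:23688977-23701688 (PLK1), chr10:62538089-62554610 (CDK1), chr5:68462962-68474072 (CCNB1) and chr12:53662083-53687422 (ESPL1), all on the plus strand.

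The 6 libraries held between 53048343 and 63835779 counts, of which the 45 genes took 0.582% to 0.643%. Levels are given in counts-per-million (CPM), scaled between libraries by the TMM factors of edgeR. The transfected gene followed the labels, with MXD3 at 9.33 and 11.7 CPM in the EV libraries, 2523 and 2162 CPM in those given MXD3, and 1975 and 1849 CPM in those given the fusion (libraries numbered 1 and 2). All 8 K562 identity markers were present (GATA1 240 to 320.1 CPM, HBE1 3548 to 4697 CPM). Of 10 markers of other cell types, MS4A1 and KRT5 had no count in any library and CD3E and CD14 stayed under 1 CPM, while EPCAM stood at 77.9 to 100.5 CPM, LYZ at 21.2 to 27.0 CPM and CD3D at 13.4 to 19.8 CPM. In every pair of groups, libraries with the same replicate number deviated from their group means together, with a correlation over the 45 genes of 0.626 to 0.871. The values of each replicate pair are therefore given beside the plasmid comparisons.

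All 45 genes passed the filter on low counts, and 44 had a mean of at least 5 CPM. The exception was UBE2C, the ubiquitin-conjugating enzyme of the anaphase-promoting complex, at 0.177 and 0.264 CPM in EV, 0.171 and 0.534 CPM for MXD3, and 0.164 and 0.445 CPM for the fusion. No exon shared with another gene is annotated for it. The gene is known to be well expressed in dividing cells, so these counts are not taken as its expression, and its own direction is not described. It stays in the counts and medians given for the 45 genes.

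On the CPM scale divided by exon length in kilobases, levels in EV spanned from 122 for TOP2A, the topoisomerase that untangles sister chromatids, to 6.06 for ESPL1, UBE2C set aside. TOP2A was followed by CDC20 (107), TPX2 (94.7), the spindle assembly factor that activates AURKA, CCNA2 or cyclin A2 (87.3), MYBL2 or B-MYB (83.8), the microtubule-depolymerising kinesin KIF2C (79.0) and CDK1 (75.6). From CCNA2 to CDK1 the neighbours in this order overlapped between their EV libraries, where CCNA2 was at 265 and 215 CPM and CDK1 at 334 and 256 CPM. At the lower end stood the centralspindlin kinesin KIF23 (7.33), survivin or BIRC5 (7.23), the kinetochore motor CENPE (8.98) and FOXM1 (9.94), the forkhead factor that drives this gene group.

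Across the 6 libraries the steadiest gene was MYBL2, at 236 and 229 CPM in EV, 234 and 226 CPM for MXD3, and 237 and 233 CPM for the fusion, so that the highest library was 1.05 times the lowest. PRC1, which bundles the central spindle, varied by 1.07 times, although 57.6% of its exon bases lie in another annotated gene on the same strand. CDC20 varied by 1.68 times, CDK1 by 1.62 times and ANLN, the anillin scaffold of the cleavage furrow, by 1.57 times. NUSAP1, a spindle microtubule factor, shares 86.8% of its exon bases with 1 or more other genes annotated on its strand, and its counts may be divided between them.

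Further genes are given by library. TOP2A stood at 769 and 780.4 CPM in EV, 747 and 709 CPM for MXD3, and 815.5 and 682 CPM for the fusion. AURKA, the centrosomal Aurora kinase, stood at 92.2 and 119.8 CPM, then at 116.5 and 110.2 CPM, and then at 104.5 and 109.8 CPM in the same order. TOP2A was lower in both MXD3 libraries than in EV, AURKA lower with the fusion than with MXD3, and the other groups overlapped for these genes. BUB1B, the checkpoint protein BUBR1, stood at 97.0 and 103 CPM in EV, 103 and 106 CPM for MXD3, and 97.0 and 96.0 CPM for the fusion, which was lower than MXD3 in both libraries. FOXM1 was at 52.2 and 45.6 CPM in EV, at 57.0 and 42.99 CPM for MXD3 and at 52.3 and 43.98 CPM for the fusion. BIRC5, the survivin subunit of the passenger complex, was at 24.5 and 30.7 CPM in EV, at 27.8 and 28.0 CPM for MXD3 and at 29.4 and 32.8 CPM for the fusion.

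**Figure D1:**
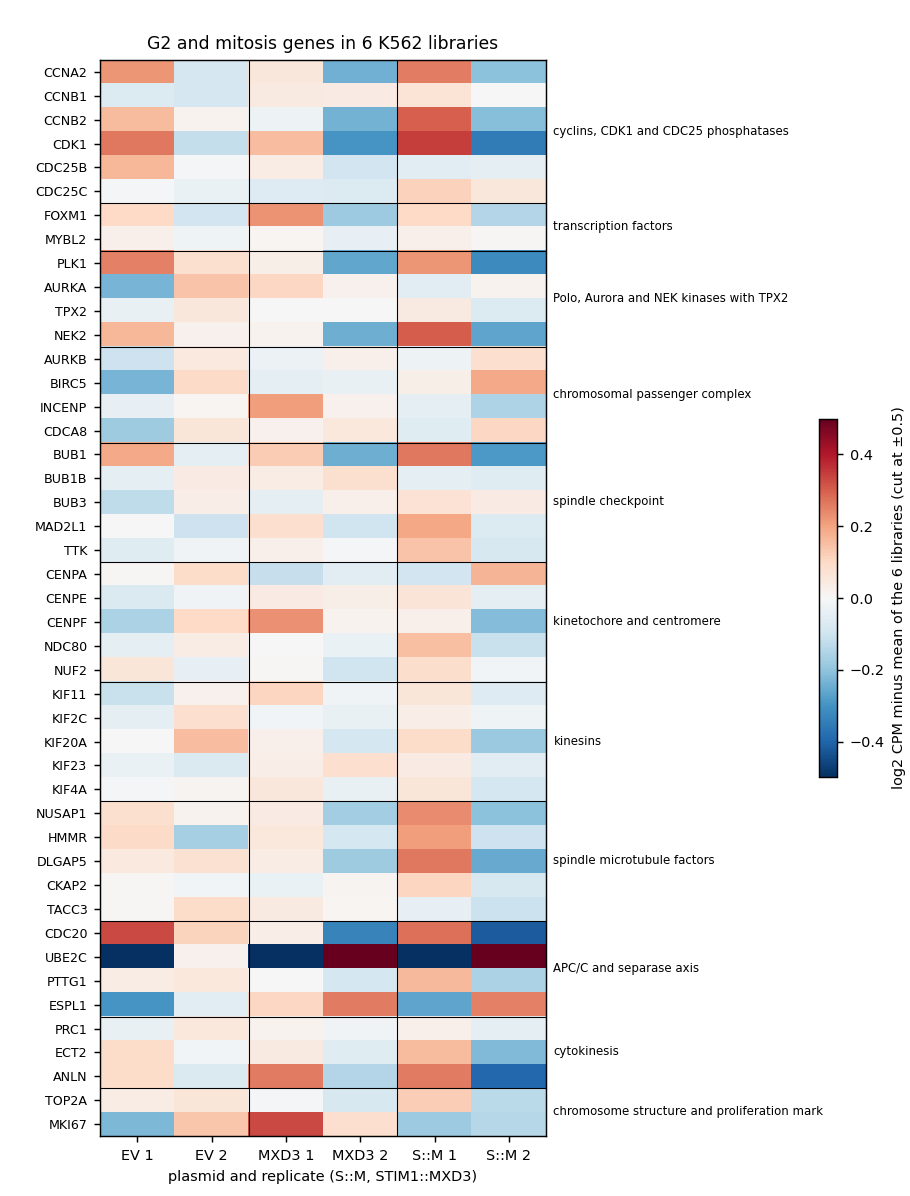
Each row is 1 of the 45 genes, grouped by role, and each column a library; colour gives log2 CPM minus that gene's mean over the 6 libraries, cut at 0.5 either way. CDK1, CDC20, BUB1, CCNA2 and ANLN are lower in the library numbered 2 of every group, ESPL1 is higher, MYBL2 is near its mean throughout, and UBE2C runs past the colour scale at under 1 CPM.

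The first comparison asked whether the fusion changed G2 and mitosis genes against EV. None of the 45 genes was called with STIM1::MXD3 (edgeR quasi-likelihood test, Benjamini-Hochberg adjusted over 15431 genes), and 0 had an unadjusted p under 0.05. Over all genes tested 0.00648% were called, which was MXD3 itself, and 0.953% had an unadjusted p under 0.05. The median log2 fold change of the 45 was -0.017 beside 0.0096 for all genes, with 19 fitted higher and 26 lower. Of the 45, 43 had a log2 fold change within 0.2 of 0, and apart from UBE2C the values ran from -0.25 for CDC20 to 0.19 for ESPL1. For 44 genes the 95% interval stayed within 1 log2 unit of 0, and the median half-width was 0.33. Changes well within that half-width were not detectable in this fit, which leaves out the replicate number. With the replicate number as a block the median SE was 0.092, beside 0.14 without it. For 44 genes the 95% interval with the block stayed within 1.5-fold either way.

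The medians of the 2 replicate pairs had opposite signs. In the replicate 1 pair 38 of the 45 genes were higher with the fusion, with a median log2 ratio of 0.083, where 52% of all genes were higher. In the replicate 2 pair 14 of the 45 were higher, with a median of -0.10, where 50% of all genes were higher. Only 17 of 45 genes had the same sign in both pairs. The fitted median rested on the fusion libraries, at 0.081 with the second left out and -0.078 with the first left out.

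By role, the kinases and cyclins showed no common direction with the fusion. CCNB1 stood at 151 and 149.7 CPM in EV and at 166 and 158.5 CPM with STIM1::MXD3, so the groups did not overlap, but the log2 fold change was 0.11 ± 0.11 (SE; adjusted p = 1, edgeR). CDC25C, the phosphatase that activates CDK1, and the checkpoint protein BUB3 also lay higher in both fusion libraries. CDC25B, INCENP and TACC3, a spindle factor recruited by AURKA, lay lower in both. These 6 genes without overlap made 13.3% of the 45, beside 22.0% of all genes. TACC3 had the lowest p of the 45 in this comparison (log2 fold change -0.12 ± 0.11, unadjusted p = 0.312, adjusted p = 1, edgeR).

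With the replicate number as a block, 0 of the 45 genes were called with the fusion (0.0194% of all genes), and 2, CDC20 and PLK1, had an unadjusted p under 0.05 (8.50% of all genes). PLK1 stood at 288 and 255 CPM in EV and at 281 and 194 CPM with the fusion, with 246 and 202 CPM for MXD3. Its EV and fusion libraries numbered 1 were thus close, and those numbered 2 further apart. The blocked log2 fold change was -0.21 ± 0.092 (adjusted p = 0.553, edgeR).

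Full-length MXD3 was then set against EV, a comparison that shares the EV libraries with the first. None of the 45 was called (0.00648% of all genes, again MXD3 itself), 0 had an unadjusted p under 0.05 (1.86% of all genes), and the median log2 fold change was -0.0091, beside 0.0011 for all genes. The 21 genes fitted higher and 24 fitted lower ranged, apart from UBE2C, from -0.36 for CDC20 to 0.35 for ESPL1. The replicate 1 pair had 25 of 45 genes higher (median 0.037), and the replicate 2 pair 11 of 45 (median -0.067), while 49.3% and 49.8% of all genes were higher in those pairs.

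CDC20 stood at 232 and 199.5 CPM in EV and at 189 and 147 CPM with MXD3, the lowest log2 fold change of the 45 (-0.36 ± 0.24, adjusted p = 0.999, edgeR). Both MXD3 libraries lay below both EV libraries. With the replicate block in DESeq2 this was the one gene of the 45 called in any plasmid comparison (adjusted p = 0.0444), in a fit that called 2.42% of the 10046 genes given an adjusted p. With the block in edgeR it was not called (log2 fold change -0.37 ± 0.10, adjusted p = 0.130).

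ESPL1, which cleaves cohesin at anaphase, was the gene fitted highest with UBE2C set aside, at 49.4 and 58.2 CPM in EV and 65.0 and 72.5 CPM with MXD3. Its log2 fold change was 0.35 ± 0.19 (unadjusted p = 0.113, adjusted p = 0.999, edgeR), and no MXD3 library overlapped EV. With the fusion it stood at 50.4 and 72.2 CPM, which overlaps EV. MKI67, the proliferation marker Ki-67, was at 156 and 200.4 CPM in EV and 229 and 193 CPM with MXD3, overlapping, with a log2 fold change of 0.25 ± 0.16 (adjusted p = 0.999, edgeR).

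The groups did not overlap for 15 of the 45 genes in this comparison, or 33.3%, beside 31.0% of all genes. The 6 higher were CCNB1, the checkpoint kinase TTK, CENPE, KIF23, INCENP and ESPL1. The 9 lower were CCNB2, CDC20, CDC25C, PLK1, the centromeric histone CENPA, TOP2A, the separase inhibitor PTTG1 or securin, the centrosomal kinase NEK2 and the spindle factor DLGAP5. With the replicate block 0 of the 45 were called (0.292% of all genes), and 5 had an unadjusted p under 0.05 (13.9% of all genes): CDC20, PLK1 and CCNB2 on the lower side, ESPL1 and MKI67 on the higher side.

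Between the constructs, 0 of the 45 genes were called (0% of all genes), and 0 had an unadjusted p under 0.05 (1.01% of all genes). The median log2 fold change of STIM1::MXD3 against MXD3 was 0.029, beside 0.0083 for all genes, with 24 fitted higher. It became -0.094 when the first fusion library was left out and -0.0061 without MXD3 replicate 2. In the replicate 1 pair 32 of 45 genes were higher with the fusion (median 0.046), in the replicate 2 pair 14 (median -0.046), and 50.7% of all genes in both pairs.

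MKI67 had the lowest p of the 45 between the constructs, at 229 and 193 CPM with MXD3 and 161 and 165 CPM with the fusion. The groups did not overlap, with a log2 fold change of -0.37 ± 0.16 (unadjusted p = 0.0544, adjusted p = 1, edgeR). INCENP, the scaffold of the chromosomal passenger complex, stood at 108 and 95.02 CPM with MXD3 and at 90.6 and 84.2 CPM with the fusion (-0.22 ± 0.12, adjusted p = 1, edgeR). With the block these were the 2 genes of the 45 with an unadjusted p under 0.05 (6.49% of all genes), and 0 of the 45 were called (0.00648% of all genes). In all, 8 of 45 genes, or 17.8%, did not overlap between the constructs, beside 21.1% of all genes. AURKA, BUB1B, MKI67, INCENP and TACC3 were lower with the fusion, and CDC25C, BUB3 and BIRC5 higher.

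**Figure D2:**
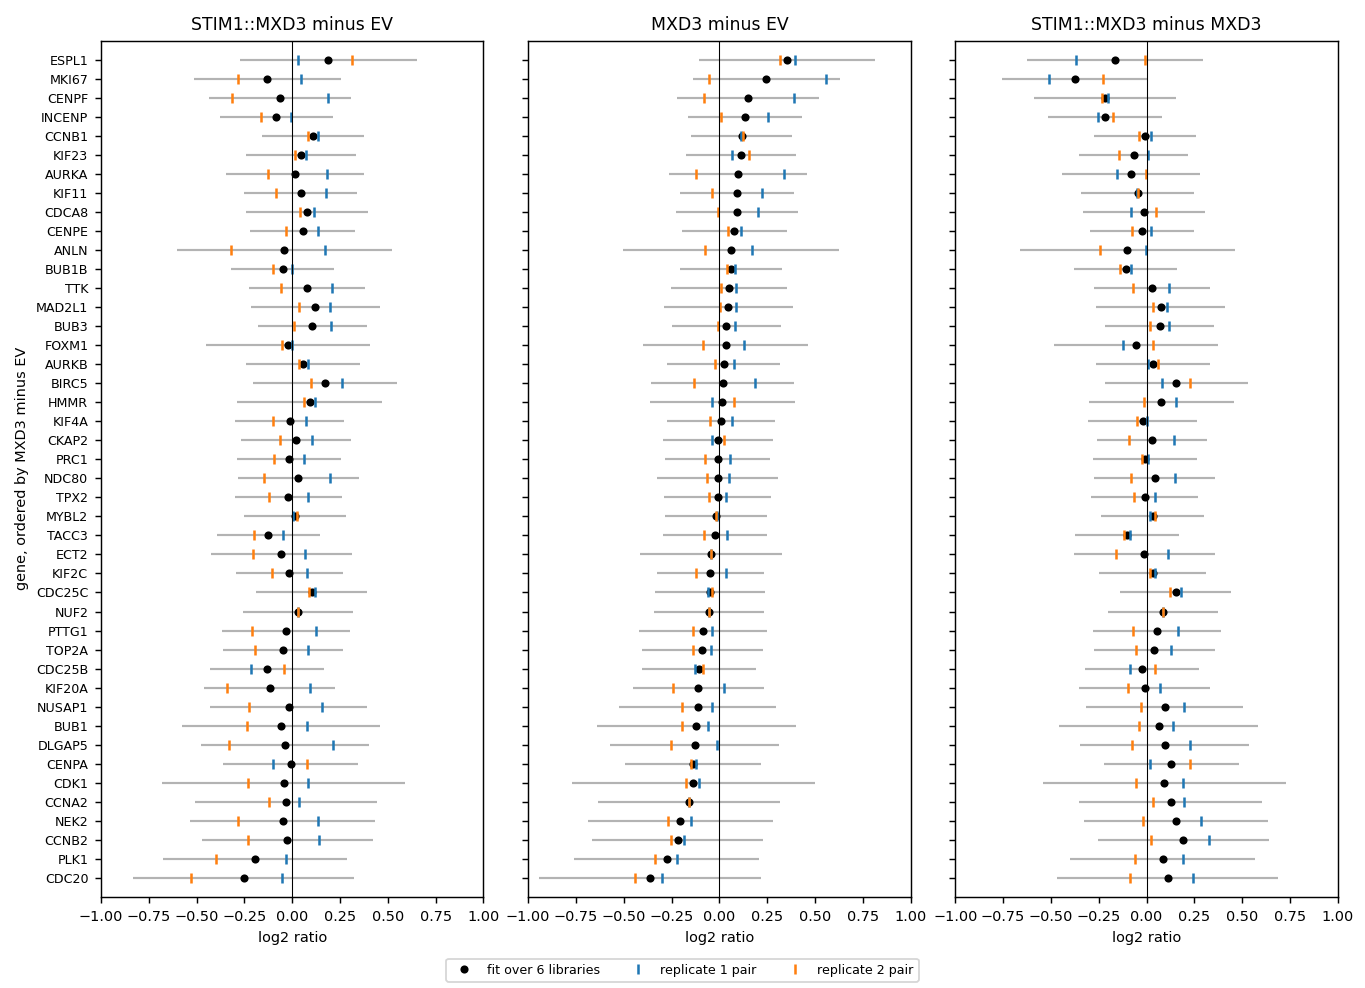
Points are log2 fold changes of 44 genes (UBE2C left out) fitted over the 6 libraries, grey lines their 95% intervals, and blue and orange ticks the log2 ratio of CPM in the replicate 1 and replicate 2 pairs. No gene passed the test in any panel, and in the first panel most blue ticks lie right of 0 and most orange ticks left of it.

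The 6 genes with CACGTG in the listed promoter showed no shared direction. Against EV the log2 fold changes with MXD3 were -0.28 for PLK1, -0.016 for MYBL2, 0.060 for ANLN, 0.079 for CENPE, 0.12 for CCNB1 and 0.15 for CENPF, the large kinetochore protein. With the fusion they ran from -0.19 for PLK1 to 0.11 for CCNB1. None of the 6 was called in either comparison by edgeR.

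Summed over the 45 genes, the level was 6280 ± 40.0 CPM in EV, 6110 ± 391 CPM for MXD3 and 6161 ± 730 CPM for the fusion (SD, n = 2 in each group). The libraries were at 6308 and 6251 CPM in EV, 6387 and 5834 CPM with MXD3, and 6677 and 5645 CPM with the fusion. The fusion thus held both the highest and the lowest library of the 6, and the groups overlapped. Between the libraries numbered 2 and 1 the sum differed by -0.897% in EV, -8.67% with MXD3 and -15.5% with the fusion. No test was run on the sum.

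**Figure D3:**
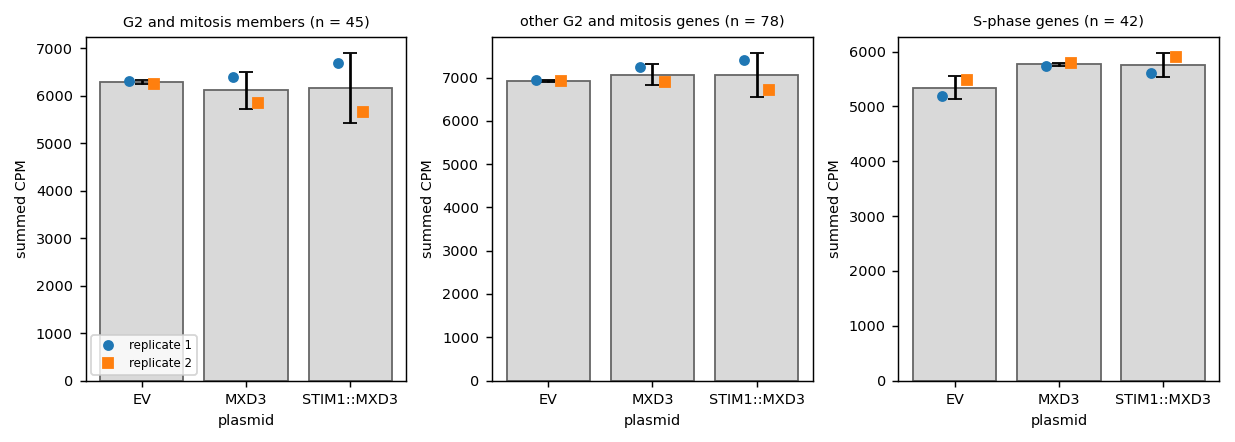
Bars are the mean summed CPM of each plasmid group with SD (n = 2), and points the libraries, for the 45 genes, for 78 further G2 and mitosis genes and for 42 S-phase genes. The 45 genes reach 6677 and 5645 CPM in the 2 fusion libraries, while the S-phase libraries run from 5199 CPM in EV to 5909 CPM with the fusion.

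Calls among the 45 genes were found between the replicate numbers. Of the 45 genes, 12 were called between the libraries numbered 2 and 1 (edgeR, replicate term beside the plasmid), or 26.7%, beside 29.2% of all genes. Of these, 11 fell and ESPL1 rose, where 16.1% of all genes fell and 13.1% rose. The median log2 fold change of the 45 was -0.072, beside 0.0062 for all genes, and 34 of 45 were fitted lower, beside 49.3% of all genes. The labels do not say what the number stands for, and round of transfection, culture and library preparation cannot be told apart.

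CDK1 had the largest fall, of log2 0.51 ± 0.073 (adjusted p = 0.000137 by edgeR). Its libraries numbered 1 stood at 334, 310, and 354 CPM in EV, MXD3 and STIM1::MXD3, and those numbered 2 at 256, 227 and 219 CPM, with no overlap. CDC20 fell by 0.43 ± 0.082 (adjusted p = 0.00120), from 232, 189 and 224 CPM to 199.5, 147 and 138 CPM. ANLN fell by 0.41 ± 0.085 (adjusted p = 0.00215) and BUB1, the checkpoint kinase that marks centromeres, by 0.39 ± 0.072 (adjusted p = 0.000956). BUB1 went from 221, 212 and 233 CPM to 188, 164 and 159 CPM, and ANLN from 103, 116 and 116 CPM to 92.3, 87.6 and 73.9 CPM. CCNA2, the cyclin of S phase and G2, fell by 0.35 ± 0.067 (adjusted p = 0.00109), from 265, 237 and 272 CPM to 215, 193 and 197 CPM.

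PLK1 fell by 0.33, NEK2 by 0.32, CCNB2 or cyclin B2 by 0.29, FOXM1 by 0.28 and the spindle factors NUSAP1 and HMMR by 0.24 each, with SE from 0.068 to 0.082. In EV, MXD3 and fusion order, NEK2 went from 104.5, 94.1 and 115 CPM to 94.5, 78.5 and 77.5 CPM, and CCNB2 from 122, 107 and 134 CPM to 110.2, 92.4 and 93.8 CPM. NUSAP1 went from 199, 193 and 221 CPM to 190.3, 166 and 163 CPM, and HMMR from 146.5, 142.5 and 159 CPM to 122, 129 and 128 CPM. All 4 were thus lower within every plasmid group. ESPL1 rose by 0.30 ± 0.084 (adjusted p = 0.0124, edgeR), from 49.4, 65.0 and 50.4 CPM to 58.2, 72.5 and 72.2 CPM, sets that overlap, the first MXD3 library lying above the second EV library. The genes that fell were spread over the cyclins and CDK1 (3 of 6 genes of that role), the kinases (2 of 4), the checkpoint (1 of 5), the spindle microtubule factors (2 of 5), cytokinesis (1 of 3), the transcription factors (1 of 2) and, in CDC20, the anaphase genes (1 of 4, ESPL1 being another of these). None of the 5 kinesins, the 5 kinetochore and centromere genes, the 4 genes of the chromosomal passenger complex, or TOP2A and MKI67 was called. Of all genes 29.2% were called, and the split by role was not tested.

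CCNB1 was not called although its partner was, at 151, 163 and 166 CPM in the libraries numbered 1 and 149.7, 163 and 158.5 CPM in those numbered 2 (log2 fold change -0.029 ± 0.065, adjusted p = 0.781, edgeR). AURKB, the passenger kinase, stood at 60.0, 63.2 and 63.5 CPM and then at 66.8, 65.7 and 68.4 CPM. TPX2 stood at 330.4, 339 and 349.5 CPM and then at 352, 339 and 323.5 CPM.

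Within plasmid groups, the median log2 ratio of the libraries numbered 2 to 1 was 0.022 in EV, -0.083 with MXD3 and -0.12 with STIM1::MXD3, where 20, 34 and 36 of the 45 genes were lower. In all 3 groups 17 genes were lower, and 6 were higher in all of them, beside 30.2% and 28.6% of all genes. The difference between these groups was not tested. With the second fusion library left out, the median log2 fold change of the 45, replicate 2 against replicate 1, was 0.0087. CDK1, CDC20, ANLN, BUB1 and CCNA2 were among the 17 genes lower in all 3 groups.

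Other measures moved with the replicate number. The 8 K562 identity markers had a median log2 fold change of -0.25, beside 0.0062 for all genes, with 6 of 8 called lower, beside 16.1% of all genes, among them GATA1, KLF1, HBG1, HBG2 and HBE1. Their summed level differed by -8.27%, -14.7% and -28.0% between the libraries numbered 2 and 1 of EV, MXD3 and the fusion. The share of low gene counts that were even was 59.8%, 61.3% and 62.7% in the libraries numbered 1 and 65.0%, 64.5% and 67.3% in those numbered 2. Exon GC content, a fixed property of each gene, had a median of 41.9% over the 11 genes that fell and 46.6% over those not called. Its Pearson correlation with the replicate log2 fold change was 0.261 over 44 genes (UBE2C left out) and 0.129 over 14520 genes tested. The part of these measures in the lower levels of those 11 genes was not tested.

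**Figure D4:**
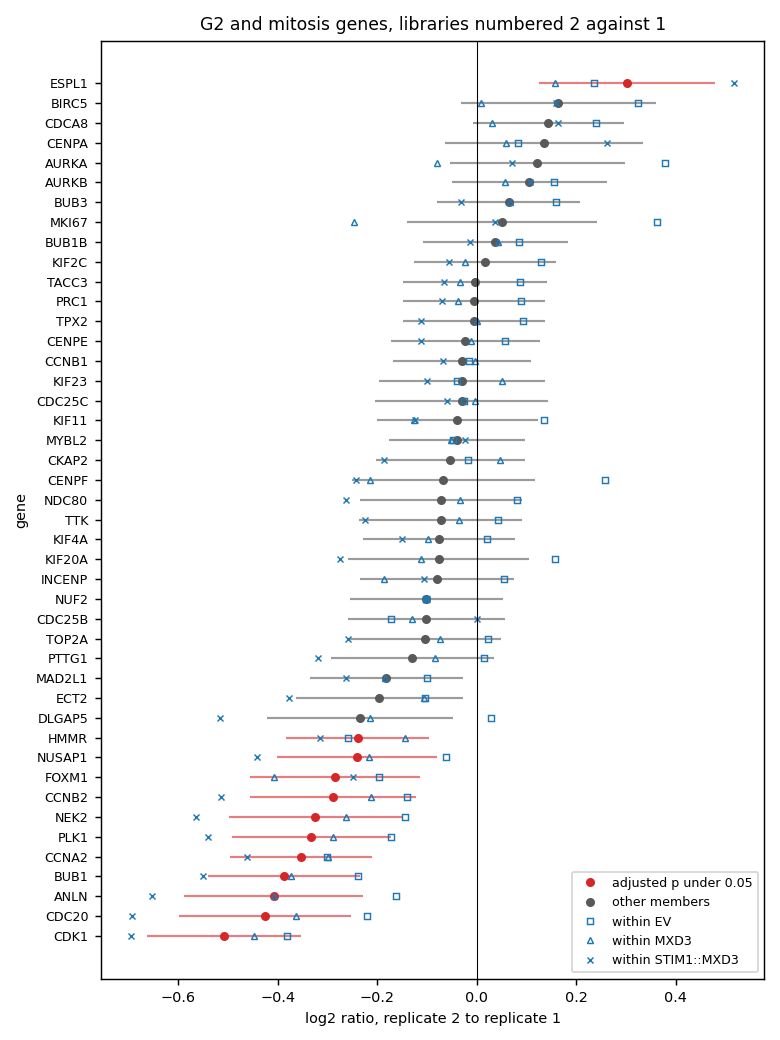
Points are log2 fold changes of 44 genes (UBE2C left out) between the libraries numbered 2 and 1, with 95% intervals, red where the adjusted p was under 0.05; open squares, triangles and crosses are the ratios within EV, MXD3 and STIM1::MXD3. CDK1, CDC20 and ANLN stand lowest, ESPL1 highest, and the fusion ratio is the lowest of the 3 for CDK1, CDC20, ANLN, BUB1, CCNA2, PLK1, NEK2, CCNB2, NUSAP1 and HMMR.

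The rest of the cell cycle machinery was read from lists chosen by function. Among 78 further G2 and mitosis genes 0 were called between plasmids by edgeR without the block, beside at most 0.00648% of all genes. The medians were 0.049 with the fusion and 0.046 with MXD3. The 2 with the smallest p were the kinetochore protein SKA3 (log2 fold change 0.45 ± 0.15 with MXD3, unadjusted p = 0.0221, adjusted p = 0.999, edgeR) and the checkpoint ATPase TRIP13 (0.33 ± 0.12, unadjusted p = 0.0302, adjusted p = 0.999, edgeR). SKA3 was at 15.8 and 16.1 CPM in EV, 20.8 and 22.8 CPM for MXD3, and 18.6 and 21.8 CPM for the fusion. All 4 libraries given MXD3 or the fusion thus lay above EV. Of all genes 31.0% did not overlap EV with MXD3, and 22.0% with the fusion. With MXD3 2 of the 78 had an unadjusted p under 0.05 by edgeR, beside 1.86% of all genes. With the block 1 of the 78 was called with MXD3, beside 0.292% of all genes. This was FBXO5 or EMI1, an inhibitor of the anaphase-promoting complex (log2 fold change 0.49 ± 0.099, adjusted p = 0.0482, edgeR).

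FBXO5 also rose between the libraries numbered 2 and 1, by a log2 fold change of 0.50 ± 0.081 (adjusted p = 0.000349, edgeR), and so did SPC24 of the kinetochore, by 0.88 ± 0.13 (adjusted p = 0.000214). In that comparison 8 of the 78 rose and 11 fell, or 24.4% called, beside 29.2% of all genes, so the list held no larger share of calls than the background. Those that rose were SPC24, SPC25, CENPC, CENPN, ZWINT, SKA2, FBXO5 and the kinesin KIF18B. Those that fell were the condensin subunits NCAPD2, NCAPD3 and NCAPH, the kinetochore genes CENPK and ZWILCH, and CDCA2, CKAP5, CKS2, DEPDC1, G2E3 and RACGAP1, from -0.23 for NCAPH to -0.37 for DEPDC1. Of 15 genes for subunits and an activator of the anaphase-promoting complex, ANAPC16 rose and ANAPC5 fell between the replicate numbers. That was 13.3% called, beside 29.2% of all genes. Between plasmids 0 of the 15 were called by edgeR without the block, beside at most 0.00648% of all genes.

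The next 23 genes were DREAM, MuvB, RB, E2F and NF-Y regulators, with the CDK inhibitor CDKN1A. Of these, 0 were called between plasmids by edgeR, with or without the block, beside at most 0.292% of all genes. Their medians were 0.075 with the fusion and 0.11 with MXD3. The repressor E2F7 stood at 23.4 and 28.4 CPM in EV and 35.4 and 33.9 CPM with MXD3 (log2 fold change 0.42 ± 0.15, unadjusted p = 0.0273, adjusted p = 0.999, edgeR). Between the replicate numbers E2F2, E2F8, RBL1 and CDKN1A rose, and the NF-Y subunit NFYC, RB1 and TFDP2 fell, by 0.42, 0.39 and 0.29 on the log2 scale. The share of the 23 called was 30.4%, close to the 29.2% of all genes.

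Of 42 S-phase genes, which peak earlier in the cycle, 40 were fitted higher with the fusion (median 0.15) and 39 with MXD3 (median 0.20), where the medians of the 45 were -0.017 and -0.0091. None of the 42 was called with or without the block in either comparison, which share the EV libraries. Of all genes at most 0.00648% were called without the block and 0.292% with it. With the block 11 and 21 of the 42 had an unadjusted p under 0.05, beside 8.50% and 13.9% of all genes. CCNE2, cyclin E2, stood at 9.60 and 10.6 CPM in EV, 13.9 and 14.9 CPM for MXD3, and 11.5 and 17.1 CPM for the fusion. POLA2 of the primase complex was at 34.1 and 34.7 CPM in EV and at 40.04 and 47.05 CPM with MXD3. PCNA, the replication clamp, was at 69.5 and 91.5 CPM in EV and at 100.4 and 103 CPM with the fusion. Between the replicate numbers 12 of the 42 rose and 3 fell, and 1 of the 45 rose and 11 fell, beside 13.1% of all genes rising and 16.1% falling. The difference between the lists was not tested. GINS4 of the replicative helicase rose by 0.62 ± 0.096 (adjusted p = 0.000241, edgeR) and the histone chaperone subunit CHAF1A by 0.44 ± 0.069 (adjusted p = 0.000259). Others that rose included GINS1, GINS3, RFC4, POLE, FEN1, CCNE1, UHRF1, CHAF1B and CLSPN, and those that fell were the licensing factor CDT1, ORC1 and RRM1.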

How the data were processed

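RNA-seq of 6 K562 libraries, made from poly A RNA, was analysed from gene counts deposited by the authors, raw and not normalised, 1 file a library with 25702 NCBI Gene IDs. The submitters' processing notes name HISAT2 2.2.1, featureCounts 2.0.1 and hg19, and the study's methods name the DRAGEN RNA Pipeline for RNA-seq data and STAR-Fusion for finding fusions. Which of them made the counts, with which annotation and strand setting, is not given in the sources used here. Reads of genes that overlap on opposite strands may not be separated. An excess of even values among low counts (as arises where a read pair is counted as 2) was met by an alternative with halved counts. Total counts were 53048343 to 63835779.

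The members and gene lists were chosen with earlier results of these data known. IDs were matched to symbols in 23696 cases (92.2%), with all 221 list genes matched. Counts were filtered by expression, which left 15431 genes, scaled by TMM and tested over the 6 libraries with edgeR 4.0.16 (R 4.3.3; quasi-likelihood F test), with group as the model and Benjamini-Hochberg adjustment at 0.05. The replicate term was tested beside group. Log2 CPM used a prior count of 2. Intervals are at 95%. Given in full by rule were 22 genes, which include none of the kinesins or of the kinetochore and centromere genes. They were genes set by role, genes called with or without the block, and the 2 highest and 2 lowest fold changes of each comparison. From other lists the genes called and the 2 with the smallest p were taken. Further genes, such as TPX2, TACC3 and those whose groups did not overlap, were named after their values were seen. P-values set each difference against the spread between these libraries, which without the block includes the shift between replicate numbers.

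Replicate numbers come from the labels. Same-numbered libraries deviated together. Over all genes r was 0.270 between EV and MXD3, 0.364 between EV and the fusion, and 0.450 between the constructs, all over 0.1. The libraries were taken as paired in the replicate pairs and the fits with the block, while the main plasmid tests left the replicate number out. Biological coefficients of variation were 0.214 without and 0.107 with the block, on 3 and 2 residual degrees of freedom. The 2 libraries of each group differed by more than counting noise. Alternatives were DESeq2 1.42.0, the replicate block, other scaling, filters, halved counts, GC and length offsets (loess), the libraries of 2 groups alone, and leaving out each library. The edgeR and offset steps were tested on simulated data. Exon lengths, GC content and overlaps came from GENCODE on GRCh37, and promoters from RefSeq.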

Additional observations from a re-analysis of the deposited data

How the results depend on the processing

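The count of 0 genes of the 45 called held in all 3 plasmid comparisons under every alternative run except DESeq2 with the replicate block, where 1 gene was called for MXD3 against EV (CDC20). The replicate block changed no other call among the 45. Leaving out each library gave a median for STIM1::MXD3 against MXD3 from -0.094 to 0.065, for STIM1::MXD3 against EV from -0.078 to 0.081 and for MXD3 against EV from -0.029 to -0.0016. For the replicate term the count of called genes ran from 6 to 12 and the median from -0.12 to 0.0087. GC and length offsets gave a median of -0.049 for the fusion against EV, with 13 of 45 genes higher.

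Over all genes, calls for the fusion against EV, MXD3 against EV and the fusion against MXD3 were 1, 1 and 0 in the main test, 3, 45 and 1 with the replicate block, 4, 56 and 1 with the block and offsets, 3, 3 and 1 with DESeq2, 29, 243 and 11 with DESeq2 and the block, and 2, 1 and 1 without a filter on low counts. Among the 22 genes described by role, leaving out a library turned the sign of a log2 fold change, none of them called in the plasmid comparisons, for 18 genes with the fusion, 10 with MXD3 and 16 between the constructs. The causes were not tested. Depth was 53048343 counts or more in every library, and each group had 2 libraries.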
